A study of Mus musculus with 11 samples.

Results

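The 10 genes described here report on, or carry out, canonical Wnt signalling, and were followed in RNA-seq libraries of mouse embryonic stem cell clones grown with a GSK-3 inhibitor. They were chosen by name, as Wnt targets and Tcf factors. They comprised the target transcription factors Sp5 and Cdx1, the feedback inhibitors Axin2, Znrf3 and Nkd1, the DNA-binding factors Tcf7, Tcf7l1, Tcf7l2 and Lef1, and Ctnnb1, which encodes beta-catenin. All 10 of 10 were found by Ensembl ID among the 22369 genes of the count table. The 11 libraries each came from 1 clone of EBRTcH3 cells, which produce a tetracycline-controlled transactivator from ROSA26. Every clone had been expanded from a single colony of cells with high eGFP and held several randomly inserted piggyBac reporters driven by the mouse PGK promoter. All were kept in medium conditioned by BRL cells with leukemia inhibitory factor, the MEK inhibitor PD0325901 and the GSK-3 inhibitor CHIR99021. The labels name 1 group and no cells without the inhibitor, so the clones, numbered 16 to 26, could be compared only with each other, and no response to CHIR99021 could be measured.

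In canonical Wnt signalling, GSK-3 works within a destruction complex with Axin and APC proteins that marks beta-catenin for degradation. When GSK-3 is inhibited, beta-catenin accumulates, enters the nucleus and binds TCF/LEF factors on target genes. In mouse embryonic stem cells Tcf7l1 acts mainly as a repressor of pluripotency genes, and lifting this repression is a known route by which GSK-3 inhibitors help to hold the naive state.

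Library totals ran from 10846005 to 16868500 counts, and levels are CPM, counts scaled to the TMM-adjusted library total, as mean ± SD over the 11 clones (n = 11 throughout). The floor of 3 counts corresponded to 0.173 to 0.284 CPM, and intervals cover counting error only. The 6 pluripotency markers summed to 4138 to 5765 CPM, against 6.23 to 19.8 CPM for 10 primitive streak and mesoderm markers. Of the streak and mesoderm mean sum of 13.8 CPM, Eomes alone held 10.2 ± 4.07 CPM, from 2.94 in clone 26 to 15.7 in clone 23. Primitive endoderm markers summed to 3.97 to 8.38 CPM, fibroblast markers to 2.07 to 6.53 CPM and 3 neural markers to 48.6 to 121 CPM. All 3 neural markers, Tubb3 (49.6 ± 21.7 CPM), Nes (25.8 ± 19.99) and Pax6 (1.82 ± 2.80), and 1 of 2 tested fibroblast markers, Col1a1 (1.17 ± 1.29), were variable by the goodness-of-fit test described with Sp5 (edgeR adjusted p = 1.09e-06, 2.63e-12, 3.38e-05 and 0.00477). That test called 0 of 6 pluripotency, 0 of 2 tested streak and mesoderm and 0 of 3 tested primitive endoderm markers. Over all 12479 tested genes it called 7.68%. Pax6 and Col1a1 reached the mean of 1 CPM needed for testing only through 1 clone each. These were clone 17 for Pax6, at 10.2 CPM, and clone 19 for Col1a1, at 4.50 CPM. Without clone 17 only 2 neural markers were tested, and without clone 19 only 1 fibroblast marker, with 0 variable. With the DESeq2 dispersion trend 0 of 2 tested fibroblast markers were variable. Clones 20 and 23 were the most alike of 55 pairs, with a chi-square per degree of freedom of 4.98 between their counts, against 14.4 to 73.4 for the other pairs. Their counts differed by more than sampling noise, and they were kept as separate samples because the labels name them as separate clones. Since each clone gave 1 library, p-values measure the spread between these libraries, which may in part be technical. In such bulk samples fewer cells of a type and less RNA per cell cannot be told apart.

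The stretches before the transcription starts of Sp5 and Axin2 are shown because these members moved together most closely across the clones. Both are the 250 bases upstream of the RefSeq start on the plus strand of GRCm38.p6, at chr2:70474673-70474922 for Sp5 and chr11:108920099-108920348 for Axin2. Capitals mark CTTTGA, the core letters of the TCF/LEF recognition sequence, searched on both strands.
Sp5: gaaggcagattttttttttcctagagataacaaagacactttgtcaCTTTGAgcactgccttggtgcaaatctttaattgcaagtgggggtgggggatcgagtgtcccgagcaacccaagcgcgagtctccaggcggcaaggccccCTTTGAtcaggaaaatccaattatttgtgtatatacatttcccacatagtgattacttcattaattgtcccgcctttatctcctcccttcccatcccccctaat
Axin2: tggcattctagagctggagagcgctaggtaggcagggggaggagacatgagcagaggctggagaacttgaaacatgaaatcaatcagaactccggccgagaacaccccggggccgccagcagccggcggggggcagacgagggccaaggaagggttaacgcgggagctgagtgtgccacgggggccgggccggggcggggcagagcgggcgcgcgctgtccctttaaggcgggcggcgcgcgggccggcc
The Sp5 stretch held 2 copies, beginning 204 and 104 bases before the start, and the Axin2 stretch held 0. Of all 32851 such RefSeq stretches of the same length, 13.83% held at least 1 copy, and of the first stretch of each of 9756 tested genes 10.49% did. Stretches were searched for 8 members, several of which have more than 1 start. Of these members 2 held the letters at any start, Sp5 and Lef1, the latter at the most downstream of its starts. At the first stretch of each member only Sp5 held them, since the first Lef1 stretch held 0 copies. A count over any start cannot be set beside the shares above, which are per stretch or per first stretch. Cdx1 and Znrf3 were not searched, so these counts say nothing about them. The Axin2 stretch was richer in G and C, at 69.2% against 46.0% for Sp5. These matches describe letters only, and binding was not measured here.

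Sp5, a zinc finger transcription factor and direct Wnt target, was the most uneven of the 10 genes. Its level (ENSMUSG00000075304, chromosome 2) was 0.630 CPM at the lowest in clone 24, 2.38 CPM at the median and 41.9 CPM at the highest in clone 19. Clone 26 followed with 22.6 CPM, clone 17 with 13.7, clone 20 with 9.01 and clone 23 with 6.75 CPM, and the other 6 clones stayed under 3 CPM. The lowest and highest levels rested on 10 and 725 counts and differed by 66.4-fold (95% interval for counting error 35.9 to 139). No clone lay between 2.38 and 6.75 CPM. The coefficient of variation (CV) was 138%, where the dispersion trend for genes of this level gave 31.6% and counting error 8.39%.

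Cdx1, a caudal-type homeobox factor activated by Wnt signalling, spread less and in another order (ENSMUSG00000024619). It ran from 7.29 CPM in clone 25 and 8.82 CPM in clone 24, over a median of 23.7 CPM, to 34.1 CPM in clone 17 and 36.3 CPM in clone 19. Counting error gave a 95% interval of 4.02 to 6.23 for the 4.98-fold range. Clones 24 and 25, low for Sp5 too, formed the low end. Clone 26, second for Sp5, held a below-median 19.03 CPM of Cdx1. Clones 16 and 18, near the bottom for Sp5, had 24.6 and 24.7 CPM of Cdx1.

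A goodness-of-fit test across all genes asked whether each gene spread more between clones than genes of similar level. Sp5 passed (edgeR negative binomial fit, Benjamini-Hochberg adjusted p = 1.94e-28), as did Cdx1 (adjusted p = 0.000528), and the remaining 7 tested members did not. This was 2 of 9 tested members, beside 7.68% of all 12479 tested genes. At an unadjusted p under 0.05 it was also 2 of 9 members, beside 13.1% of all tested genes (edgeR). The deviance per degree of freedom was 16.97 for Sp5, with 20 tested genes above it, and 3.97 for Cdx1, with 448 above it. The median over the 9 members was 1.10, beside 0.551 over all tested genes. Without clone 25 the call on Cdx1 was lost (edgeR adjusted p = 0.0599), while Sp5 kept its call without any single clone. Sp5 and Cdx1 were already known to vary in these data when the genes were chosen.

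**Figure D1:**
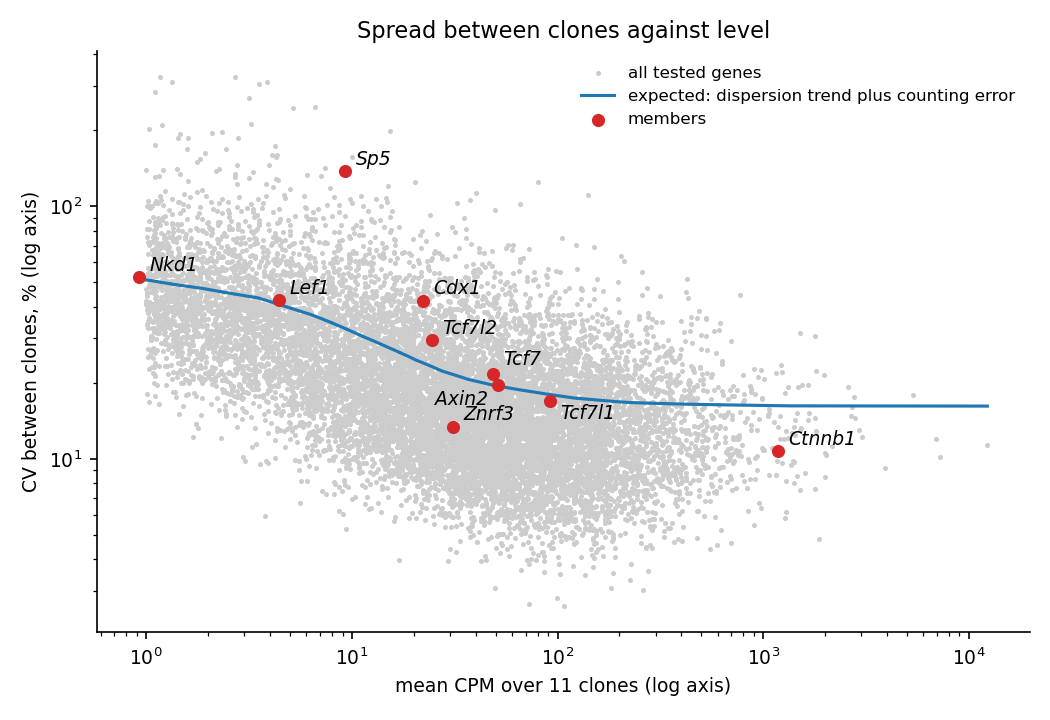
Coefficient of variation between the 11 clones (%, log axis) against mean CPM (log axis) for every tested gene in grey and the 10 members in red; the blue line is the CV expected from the dispersion trend plus counting error. Sp5, at a CV of 138%, and Cdx1, at 42.3%, lie above the line, and Ctnnb1, at 10.8%, below it.

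Of the feedback inhibitors, Axin2 and Znrf3 had smaller CVs than Sp5 and Cdx1, and Nkd1, at 52.6%, a larger one than Cdx1. Axin2, a scaffold of the destruction complex and widely used Wnt readout, ran from 42.9 CPM in clone 25 over a median of 47.5 CPM to 74.7 CPM in clone 19 (ENSMUSG00000000142, chromosome 11; 51.1 ± 10.1 CPM, n = 11). Clones 17, 26 and 20 came next with 61.8, 55.5 and 55.2 CPM, and 5 clones lay within 42.9 to 44.4 CPM. Its CV of 19.7% matched the trend value of 19.1%, and it did not pass the goodness-of-fit test (edgeR adjusted p = 1). Its range of 1.74-fold exceeded counting error (95% interval 1.58 to 1.92).

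Znrf3, a membrane ubiquitin ligase that removes Wnt receptors, had the narrowest range of the inhibitors. It was at 22.1 CPM in clone 16, 30.5 CPM at the median and 36.0 CPM in clone 26 (ENSMUSG00000041961, chromosome 11). Clone 19, highest for Sp5 and Axin2, had 29.5 CPM of Znrf3, just under its median. Nkd1, which binds Dishevelled proteins and dampens the pathway, was close to the limit of detection (ENSMUSG00000031661, chromosome 8). It ran from 0.280 CPM (4 counts) in clone 26 to 1.77 CPM (26 counts) in clone 21, with a mean of 0.924 ± 0.486 CPM. That mean missed the minimum of 1 CPM, so Nkd1 was the 1 member left untested. The 95% counting intervals of these extremes, 0.0762 to 0.716 CPM in clone 26 and 1.16 to 2.59 CPM in clone 21, did not overlap each other.

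**Figure D2:**
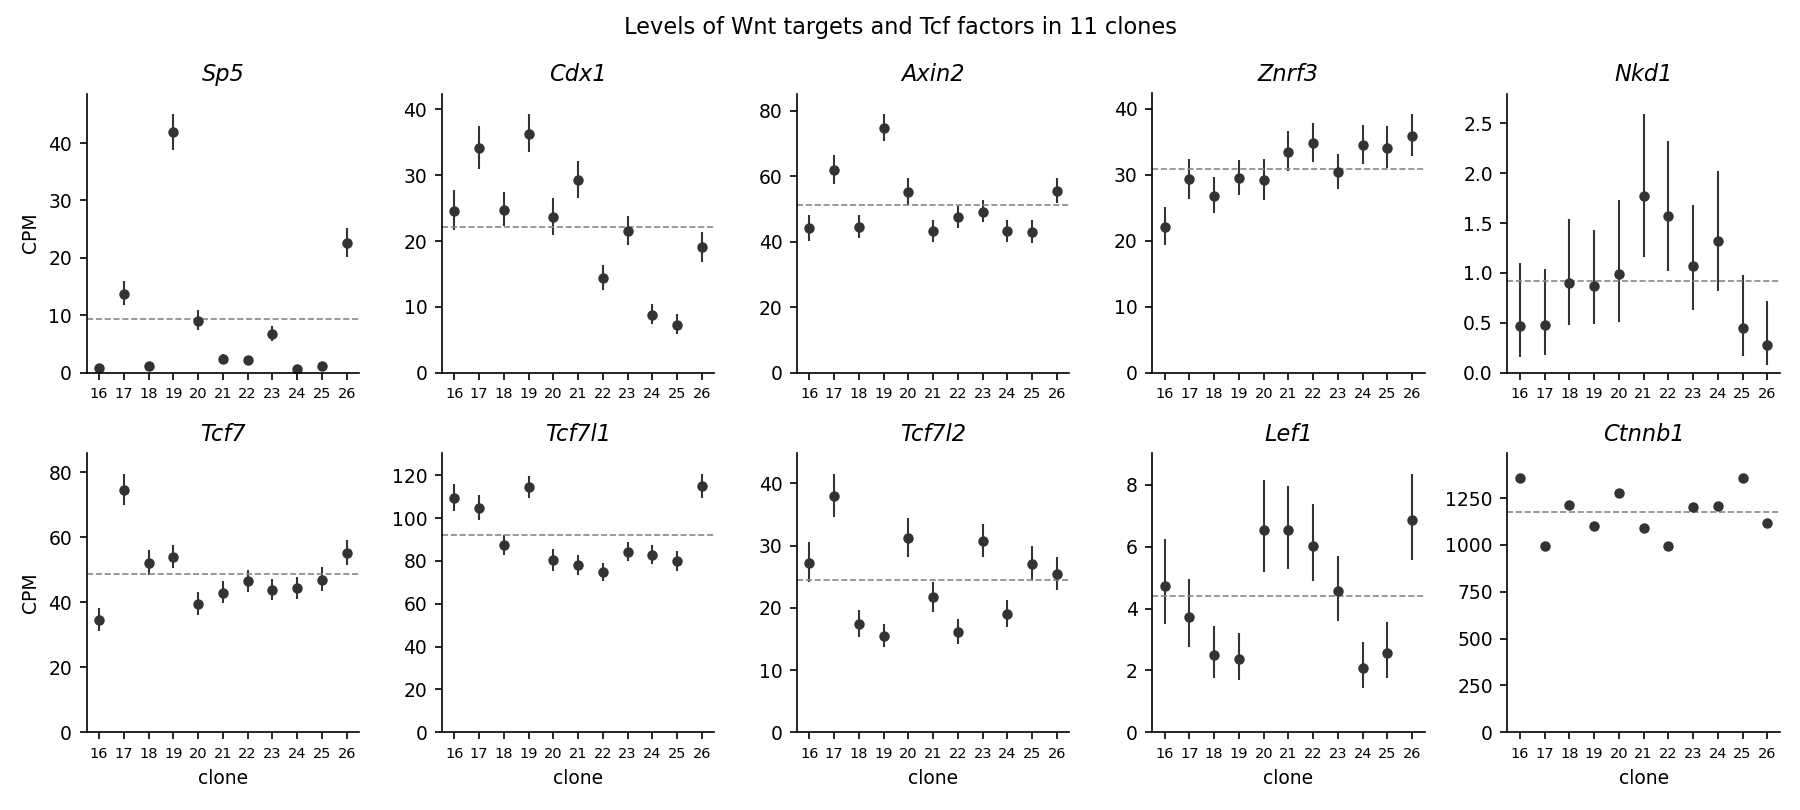
Level of each of the 10 genes in CPM (vertical axis, from 0) for clones 16 to 26 (horizontal axis); points are single libraries, bars 95% counting intervals and dashed lines the mean over clones. Sp5 and Axin2 both peak in clone 19, at 41.9 and 74.7 CPM, while Ctnnb1 stays within 993 to 1358 CPM.

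Among the TCF/LEF factors, Tcf7l1, the repressor, was the most abundant. It was at 74.8 CPM in clone 22, 84.3 CPM at the median and 115 CPM in clone 26, with clones 19, 16 and 17 at 114, 109 and 105 CPM (ENSMUSG00000055799, chromosome 6). These 4 clones stood apart from the other 7, which lay between 74.8 and 87.4 CPM. Tcf7, mainly an activator in embryonic stem cells, was at 34.6 CPM in clone 16, 46.4 CPM at the median and 74.5 CPM in clone 17 (ENSMUSG00000000782, chromosome 11). Clone 17 stood above the next clone, 26, which had 55.1 CPM.

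Tcf7l2, a factor better known from the intestine, ran from 15.5 CPM in clone 19 over 25.5 CPM at the median to 38.0 CPM in clone 17 (ENSMUSG00000024985, chromosome 19). Clone 19, the highest for Sp5, Cdx1 and Axin2, was thus the lowest for Tcf7l2. Lef1, itself a Wnt target in many tissues, was low, at 2.08 CPM in clone 24, 4.56 CPM at the median and 6.86 CPM in clone 26 (ENSMUSG00000027985, chromosome 3). Clones 18, 19, 24 and 25 held 2.08 to 2.56 CPM of Lef1, and clones 20, 21, 22 and 26 held 6.03 to 6.86 CPM. Neither gene passed the goodness-of-fit test (edgeR adjusted p = 0.582 for Tcf7l2 and 1 for Lef1).

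Ctnnb1, the coactivator that the pathway controls mostly at the protein level, was at 1174 ± 126 CPM (ENSMUSG00000006932, chromosome 9). It ran from 993 CPM in clone 22 over 1203 CPM at the median to 1358 CPM in clone 16. Its CV of 10.8% was the lowest among the members, and clones 19 and 26, with the most Sp5, had 1103 and 1117 CPM. Beta-catenin protein was not measured.

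Levels of different genes were compared per kilobase of merged exons. Ctnnb1 stood at 226 ± 24.4 CPM per kb, above Tcf7l1 (23.4 ± 3.98), in 11 of 11 clones and with no overlap of ranges. Tcf7l1 exceeded Tcf7 (18.5 ± 4.02 CPM per kb) in 10 of 11 clones, and Cdx1 (12.7 ± 5.35) and Axin2 (9.27 ± 1.82) followed with overlapping ranges. Sp5 (4.42 ± 6.11 CPM per kb) was above Znrf3 (3.92 ± 0.526) in only 4 of 11 clones. Tcf7l2 (2.79 ± 0.822) exceeded Lef1 (0.501 ± 0.213) in 11 of 11 clones, and Nkd1 came last at 0.203 ± 0.107 CPM per kb. With the longest transcript as length, Tcf7l2 moved from the eighth to the sixth place, at 6.59 CPM per kb, and Sp5 from the sixth to the eighth, at 4.42, below Znrf3 at 4.90. The Sp5 mean rests in part on clone 19, without which it was 6.02 CPM, against 9.28 CPM with all clones.

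Of the summed TCF/LEF level per kilobase, Tcf7l1 made up 51.9% ± 4.63 and Tcf7 40.8% ± 4.77 (SD, n = 11 clones). Tcf7l2 contributed 6.21% ± 1.71 and Lef1 1.14% ± 0.536. The Tcf7l1 share was lowest in clone 17, at 44.6%, and highest in clone 16, at 62.4%, while the Tcf7 share was 47.4% in clone 17 and 29.5% in clone 16. With the longest transcript as length the Tcf7l2 share was 11.5%, the Tcf7 share 34.0% and the Lef1 share 2.14%.

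Each clone was then set against the other 10 to see whether a member stood outside their spread. Of 99 pairs of member and clone, 0 passed the edgeR quasi-likelihood test after adjustment, beside 0.213% of all 137269 gene and clone pairs. At an unadjusted p under 0.05 there were 6 pairs by edgeR, beside 5.92% of all pairs, and the DESeq2 Wald test also called 0. The smallest p belonged to Tcf7 in clone 17, with a log2 fold change of 0.70 ± 0.19 (SE; edgeR adjusted p = 0.309). Axin2 in clone 19 followed with 0.62 ± 0.18 (edgeR adjusted p = 0.380). Sp5 in clone 19 reached 2.80 ± 1.16 (edgeR adjusted p = 0.759). Each such value rests on 1 library, so variation of the clone and of its library cannot be told apart.

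Sp5 and Axin2 varied together across the clones. The 5 clones with the most Sp5 were also the 5 with the most Axin2, namely 17, 19, 20, 23 and 26. On the log2(CPM + 1) scale Pearson's r was 0.93 (permutation test, two-sided, p = 0.0001, adjusted p = 0.0045 over 45 pairs of members). Spearman's rho was 0.86 (permutation p = 0.00123, adjusted p = 0.0554), which missed the threshold. Some markers of other cell types also peaked in clone 19. Nes was at 75.9 CPM there, against 10.97 to 48.2 CPM elsewhere, and Col1a1 at 4.50 CPM, against 0.350 to 2.55 CPM elsewhere. The other tested neural markers, Tubb3 and Pax6, were lowest in clone 19, at 19.2 and 0.520 CPM. Thy1, the other tested fibroblast marker, had 1.79 CPM in clone 19, under its median of 3.08 CPM. Col3a1, Postn and Dcn were at 0 CPM there, and Col1a2, at 0.231 CPM, was highest in clone 16. The part of these markers in the levels of Sp5, Cdx1 and Axin2 was not tested. Leaving out clones 19 and 26, the 2 farthest from the median of Sp5, gave r = 0.93. Leaving out any single clone gave r between 0.91 and 0.96, and averaging clones 20 and 23 gave 0.94. After the median change of 25 neighbouring genes was subtracted in each clone, r was 0.89.

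Of the 45 pairs, 1 passed by r and 0 by rho, while 4 had an unadjusted permutation p under 0.05 for r and 2 for rho. Without single clones the number passing by rho was 1 (without clone 16, 18 or 21) or 2 (without clone 25), and 0 without each of the others. The unadjusted number for r was between 2 (without clone 17) and 7 (without clone 16). Sp5 and Cdx1 had r = 0.56 and rho = 0.46 (permutation p = 0.0728 and 0.155, adjusted p = 0.453 and 0.602), and r = 0.56 without clones 19 and 26. Axin2 and Cdx1 had r = 0.59 and rho = 0.56 (permutation p = 0.0552 and 0.0761, adjusted p = 0.453 and 0.602). Axin2 and Tcf7l1 had r = 0.62 and rho = 0.57 (permutation p = 0.0408 and 0.0724, adjusted p = 0.453 and 0.602), but r = 0.30 without clones 19 and 17. Znrf3, although also a feedback gene, had r = -0.04 with Axin2 and 0.13 with Sp5 (permutation p = 0.909 and 0.707, adjusted p = 0.951 and 0.896). The corresponding rho values were -0.14 and 0.11 (permutation p = 0.693 and 0.755, adjusted p = 0.868 and 0.871). Positive values of r were 24 of 45.

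**Figure D3:**
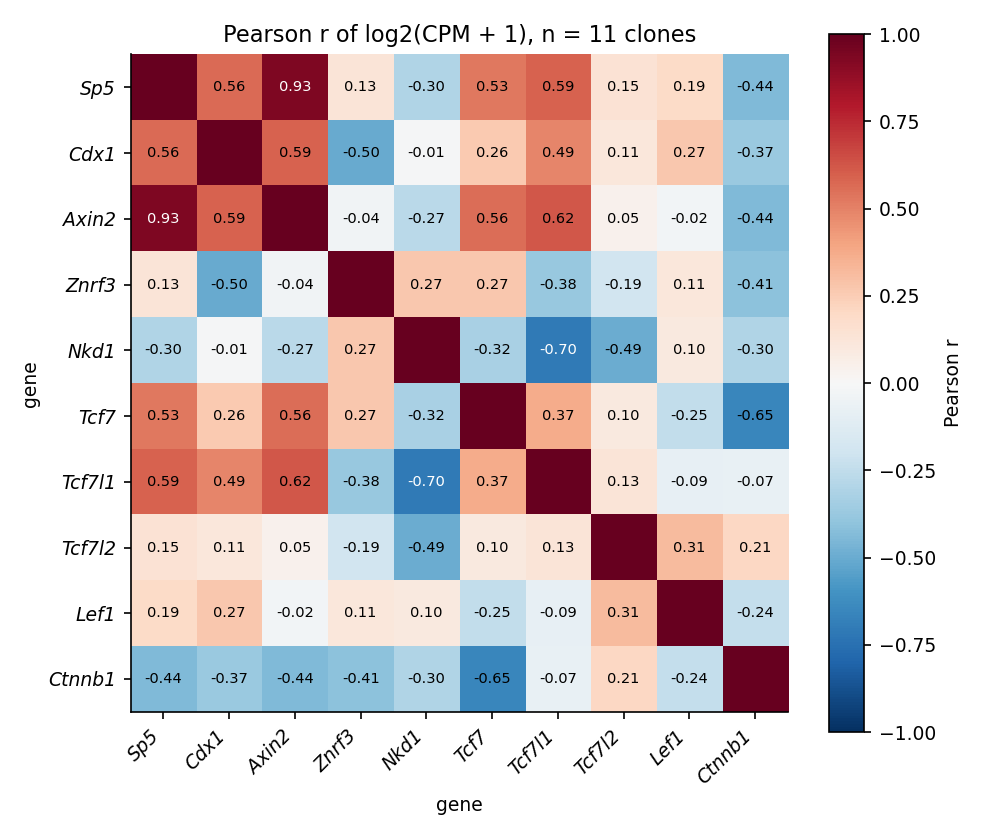
Pearson's r of log2(CPM + 1) over 11 clones for each pair of the 10 genes, with colour from -1 (blue) to 1 (red). The pair of Sp5 and Axin2, at 0.93, is the only pair of 45 that passed adjustment by r, and Ctnnb1 and Tcf7 show -0.65.

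The largest negative value linked Nkd1 and Tcf7l1 (r = -0.70, rho = -0.68; permutation p = 0.0198 and 0.0261, adjusted p = 0.413 and 0.587). Nkd1 counts were 4 to 26 per library, and r was -0.56 without clones 26 and 21. Tcf7 and Ctnnb1 had r = -0.65 and rho = -0.46 (permutation p = 0.0275 and 0.156, adjusted p = 0.413 and 0.602), and r = -0.27 without clones 17 and 16. With the neighbouring genes subtracted, that pair passed at r = -0.80 (permutation test, adjusted p = 0.0405).

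Chromosomal neighbours of several members were shifted as a group in 1 clone. For the 25 expressed genes nearest to Lef1, the median difference of clone 16 from the median clone was 0.63 (log2), while Lef1 itself differed from its median clone by 0.04. Around Tcf7l2 they were higher in clone 17 by 0.39, and Tcf7l2 by 0.56. Around Nkd1 they were higher in clone 22 by 0.47, and Nkd1 by 0.44. In each case the median over expressed genes of the whole chromosome was higher too. It was 0.56 for chromosome 3 in clone 16, 0.54 for chromosome 19 in clone 17 and 0.48 for chromosome 8 in clone 22. Around Sp5 the neighbours stayed within -0.08 and 0.10 in all clones, while Sp5 ran from -1.05 to 3.66. Axin2 was 0.64 above its median clone in clone 19, with neighbours at -0.07. The part of DNA copy number in these shifts was not tested.

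**Figure D4:**
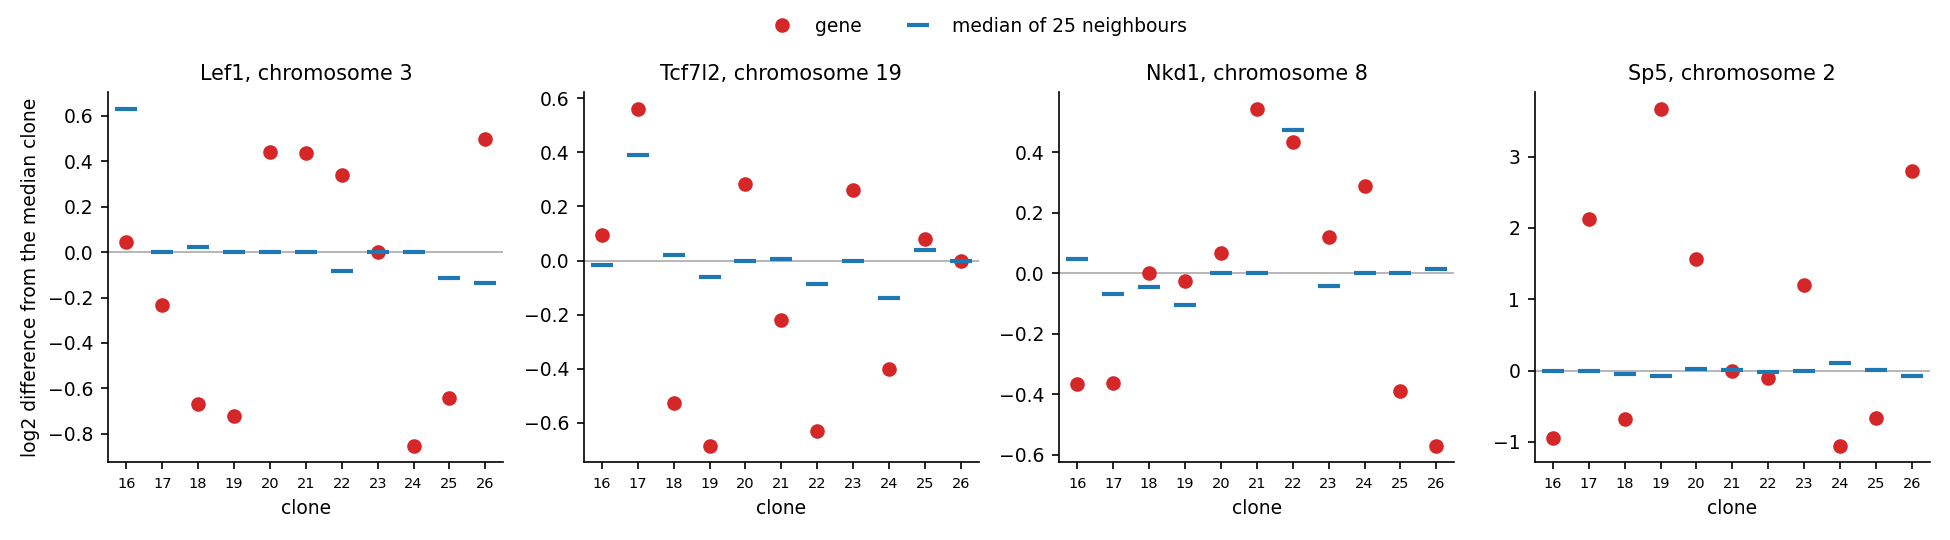
Difference from the median clone in log2(CPM + 1) (vertical axis, own scale in each panel) for 4 members (red points) and the median of their 25 nearest expressed genes (blue bars) in clones 16 to 26. Neighbours rise with Tcf7l2 in clone 17 (0.39) and with Nkd1 in clone 22 (0.47), and stay near 0 around Sp5.

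Across 10353 genes averaging 5 CPM or more, Axin2 ranked second in likeness to Sp5 by r over the 11 clones. As a description of these libraries, chosen as the extremes of many values, the others were Ssh1, a cofilin phosphatase gene (r = 0.94), Atp5c1 of the mitochondrial ATP synthase (0.93), Nudt19 (0.92) and Dcaf4 (0.92). Ssh1 was at 62.4 to 125 CPM, with 125 CPM in clone 19 and 124 CPM in clone 26. The lowest values belonged to Col4a1, a basement membrane collagen (r = -0.95), Klhdc10 (-0.95) and the semaphorin gene Sema5b (-0.93). Col4a1 had 8.37 CPM in clone 19 and 6.44 CPM in clone 26, against 48.9 CPM at the highest in clone 16. For Axin2 the most alike were Mpp6 (r = 0.96), Sp5, Dnaaf3 (0.93), Hacd3 (0.92) and Rnd2 (0.92), and the least alike Dab1 (-0.94), Ncapd3 (-0.93) and Gfod1 (-0.93).

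Clones 19 and 26 also had the lowest levels of the ERK feedback genes Spry4 (4.68 and 21.4 CPM, against 51.6 to 134.5 CPM elsewhere) and Etv4 (6.58 and 16.02 CPM, against 42.9 to 175 CPM elsewhere), and the highest of the Nodal antagonist Lefty2 (402 and 488 CPM, against 11.8 to 163 CPM elsewhere). Sp5 and Spry4 had r = -0.76 and rho = -0.51 (permutation p = 0.0042 and 0.117, adjusted p = 0.188 and 0.420 over 90 pairs), and r = -0.23 without clones 19 and 26. Sp5 and Lefty1 had r = 0.64 and rho = 0.37 (permutation p = 0.0355 and 0.261, adjusted p = 0.239 and 0.604), and r = 0.10 without these clones. Both relations with Sp5 thus rest on clones 19 and 26, unlike that between Sp5 and Axin2. Nodal itself (103 ± 13.5 CPM) did not pass the goodness-of-fit test (edgeR adjusted p = 1).

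Genes that Tcf7l1 is known to repress were high throughout. Esrrb stood at 1387.5 ± 176 CPM, Tfcp2l1 at 1971 ± 423, Nanog at 751 ± 90.0 and Klf2 at 335 ± 71.2 CPM, and 0 of these 4 passed the edgeR goodness-of-fit test (1 at an unadjusted p under 0.05, 0 with the DESeq2 trend). Esrrb was lowest in clone 17, at 1030 CPM. Axin2 and Esrrb had r = -0.85 and rho = -0.75 (permutation p = 0.0029 and 0.0111, adjusted p = 0.188 and 0.200 over 90 pairs), and r = -0.52 without clones 19 and 17. Of these 90 pairs of members with Tcf7l1-repressed, ERK feedback and Nodal pathway genes, 0 passed by r or rho, and 17 had an unadjusted permutation p under 0.05 for r. The share over all gene pairs was not computed, so no excess can be read from this number. The pairs also repeat one another, since Spry4 and Etv4 were both lowest, and Lefty1 and Lefty2 both highest, in clones 19 and 26.

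**Figure D5:**
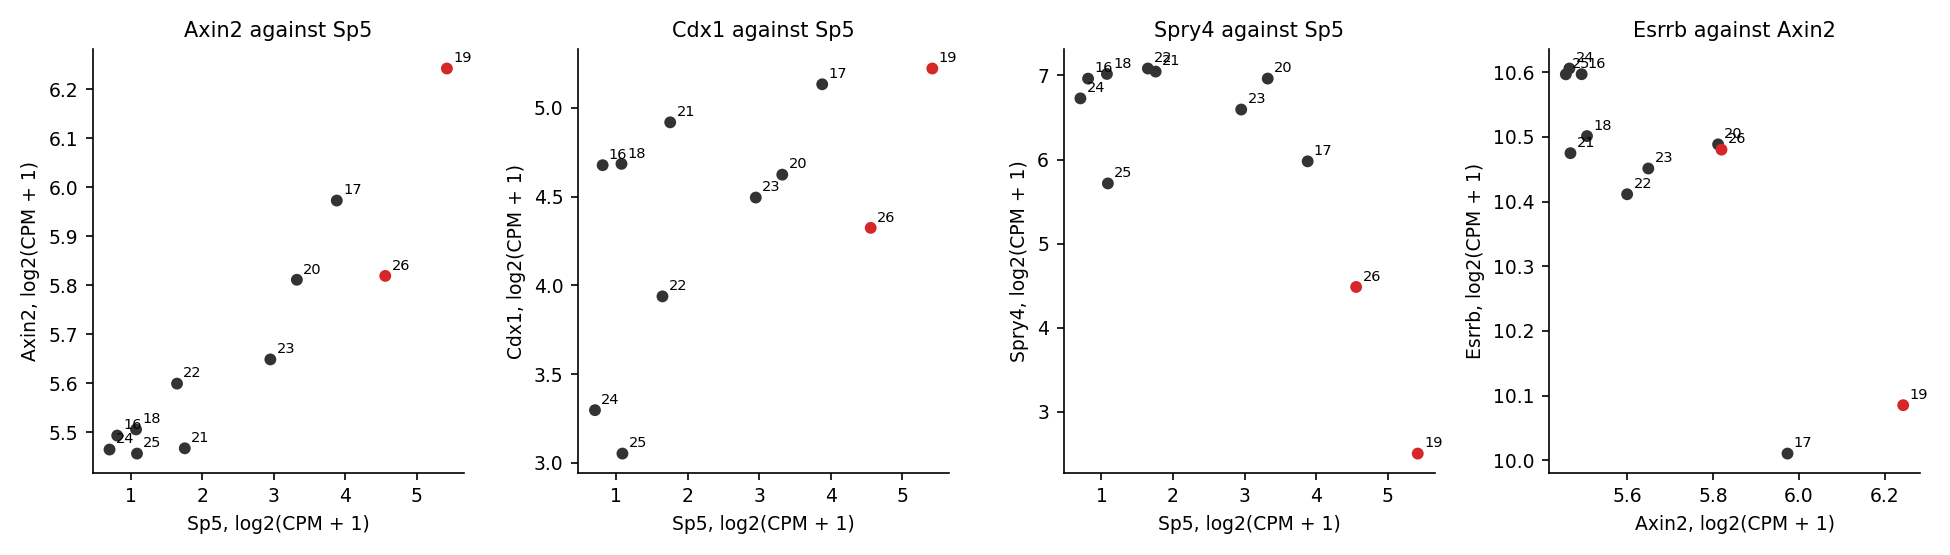
Levels in 11 numbered clones as log2(CPM + 1) on both axes, with clones 19 and 26 in red, for Axin2, Cdx1 and Spry4 against Sp5 and for Esrrb against Axin2. The points of Axin2 against Sp5 follow 1 slope (r = 0.93), while those of Spry4 are flat except in clones 17, 19, 25 and 26.

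The wider pathway was described from lists of 105 genes, of which 67 were tested and 8 (11.9%) were variable, beside 7.68% of all tested genes. Their median deviance per degree of freedom was 0.718, beside 0.551 over all tested genes. Other Wnt targets held 3 of 5 tested genes, the cyclin gene Ccnd1 (13.5 to 72.8 CPM), the receptor gene Tnfrsf19 (12.3 to 53.1) and Myc (5.39 to 27.4). Without clone 26 this list held 1 variable gene, and without clone 18 or 21 it held 2. Ccnd1 was highest in clone 17 and Myc in clone 18, and Myc was lowest in clone 26. Tnfrsf19 was lowest in clone 21, where its neighbours differed by a median of -0.91 (log2). Brachyury (T), a mesoderm gene and Wnt target, was at 0.189 to 1.399 CPM in all clones, and Cdx2 at 0 to 0.520 CPM.

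Most Wnt ligand genes were scarce. Of 25 ligand and secretion genes 7 were tested, Wnt2 had 0 counts, and the most abundant were Porcn (43.3 ± 11.2 CPM) and Wls (18.999 ± 8.74 CPM), both needed for Wnt secretion, and Wnt5b (3.17 ± 1.48 CPM). Wls was the 1 variable gene of this list (edgeR adjusted p = 0.000204), at 4.29 CPM in clone 17 and 32.4 CPM in clone 16, where its neighbours were higher by 0.55. The 1 variable gene was 14.3% of the 7 tested, beside 7.68% of all tested genes. Without clone 17 this list held 0 variable genes, and with no filter on level it held 2 of 24.

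Among the receptors, 14 of 18 were tested and 2 (14.3%) were variable, beside 7.68% of all tested genes. Fzd5 (352 ± 62.0 CPM) was the most abundant Frizzled gene and did not pass. Fzd7, a Frizzled with a known role in embryonic stem cells, was at 112 CPM in clone 19 and 146 CPM in clone 26, against 161 to 328 CPM elsewhere (edgeR adjusted p = 0.00359). The coreceptor gene Lrp5 was at 60.9 CPM in clone 16 and 322 CPM in clone 17 (edgeR adjusted p = 1.71e-06), where its neighbours were higher by 0.72. Leaving out clone 19 took the number of variable receptor genes to 1.

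Of the secreted and surface inhibitors 7 of 18 were tested, led by Sfrp1 (233 ± 48.3 CPM), Kremen1 (21.8 ± 2.77) and Dkk3 (15.9 ± 5.52), and Dkk4 had 0 counts. Apcdd1, a membrane inhibitor and Wnt target, was the 1 variable gene (edgeR adjusted p = 9.35e-12). This was 14.3% of the 7 tested, beside 7.68% of all tested genes. There were 2 variable genes with DESeq2 size factors, the DESeq2 trend or a minimum of 5 CPM, and 2 without clone 19, 21, 24 or 25. Apcdd1 reached 44.2 CPM in clone 19 and 21.9 CPM in clone 16, over a median of 6.79 CPM. In the destruction complex list 1 of 15 tested genes was variable (6.67%, beside 7.68% of all tested genes). This was Csnk1e (131 to 322 CPM, edgeR adjusted p = 0.0189), highest in clone 17, where its neighbours were higher by 0.55. Its neighbours were also higher in clones 16 and 19, by 0.42 and 0.49, where Csnk1e was higher by 0.21 and 0.54. Without clone 17 this list held 0 variable genes. Csnk1a1 (724 ± 70.8 CPM), Tnks2 (566 ± 81.9) and Apc (283 ± 40.5) led that list. Of 19 nuclear partners of beta-catenin, all tested, 0 were variable by edgeR or with the DESeq2 trend, and 1 had an unadjusted p under 0.05. Over all tested genes the edgeR shares were 7.68% after adjustment and 13.1% without it. Set against the other 10 clones, the chromatin remodeller gene Chd8 was lower in clone 21 (log2 fold change -0.91 ± 0.16, SE; edgeR quasi-likelihood fit). Chd8 lies on chromosome 14, as does Tnfrsf19, whose neighbours differed by a median of -0.91 in the same clone. The neighbours of Chd8 itself were not examined. Against the other 10 clones, Wnt9a was lower in clone 17 (log2 fold change -3.66 ± 0.62) and Csnk1e higher in clone 17 (1.11 ± 0.18). Wnt9a was scarce, with a mean of 1.01 CPM. Its 0.0795 CPM in clone 17 lay under the floor of 3 counts in that library, 0.238 CPM, and it did not pass the goodness-of-fit test. The nuclear partners were led by Tle3 (376 ± 60.6 CPM), Ep300 (353 ± 70.5) and Ctbp2 (274 ± 27.99).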

How the data were processed

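RNA was sequenced in 11 clones, with 1 library for each. The authors deposited whole-number read counts per gene, and per the submitters' processing notes used TopHat 1.4.0 and Bowtie 0.12.7, with mm9 and hg19 named as builds. For the counting tool, the strand setting and reads with several matches, the sources used here give nothing. Per the labels' protocols, total RNA came from the RNeasy kit, with Illumina TruSeq RNA for library preparation. Symbols were matched for 20777 of 22369 IDs from GENCODE vM21 (GRCm38), whose coordinates served only for gene order and exon length. Promoter sequences came from RefSeq on GRCm38.p6.

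Counts were analysed with edgeR 4.0.16 in R 4.3.3 on TMM library sizes (totals 10846005 to 16868500), for the 12479 genes that averaged 1 CPM or more. To find variable genes, 1 common level per gene was fitted (negative binomial, trended dispersion) and its deviance tested as chi-square with 10 degrees of freedom. Single clones were tested by quasi-likelihood, with SE derived from fold change and F. Correlations used log2(CPM + 1) and 100000 permutations, and Benjamini-Hochberg adjustment was used throughout. DESeq2 1.42.0 gave alternatives. Correlations ran in SciPy 1.17.1 and NumPy 2.4.6 under Python 3.11.15, and figures in matplotlib 3.10.9, with pandas 2.3.3 for tables. The goodness-of-fit, quasi-likelihood and correlation tests were tried on simulated data. Named genes are the members, the 3 most abundant and up to 4 variable genes of each pathway list, the 5 most and 3 least alike genes of Sp5 and Axin2, and the ERK, Nodal and Tcf7l1-repressed lists. Members and lists were chosen with earlier results of these data known. The 90 correlations with other genes and the use of the longest transcript as length were added after seeing the data. So were the medians over whole chromosomes and the values of Cdx2, T, Nes, Pax6, Chd8 and Wnt9a. The same holds for Eomes and for the fibroblast markers Col1a1, Col1a2, Col3a1, Thy1, Postn and Dcn.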

Additional observations from a re-analysis of the deposited data

How the results depend on the processing

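The number of variable members, 2, was the same with DESeq2 size factors, no filter, a minimum of 5 CPM and the DESeq2 dispersion trend, and was 1 to 2 without single clones, the lower value without clone 25. Over all genes, 293 pairs of gene and clone became 1435 with the DESeq2 Wald test, and 152 to 278 without single clones (183 without clone 18, 195 without 19, 160 without 20, 152 without 21, 183 without 22, 154 without 23 and 163 without 25), with 0 among members in each. The number of correlated pairs, 1, was 1 to 2 without single clones, where r of Nkd1 and Tcf7l1 was -0.87 without clone 25 (permutation adjusted p = 0.0241), and 2 with neighbouring genes subtracted. Variable Wnt pathway genes, 8, were 6 to 9 without single clones. No correlation changed sign where its adjusted p was under 0.05 with or without the change of setting. Correlations that did not pass could change sign when single clones were left out. For Znrf3, r ran from -0.35 to 0.04 with Axin2 and from -0.20 to 0.25 with Sp5. No paired analysis was possible because all clones form 1 group. With 1 library per clone, depth limits Nkd1 (4 to 26 counts) and the low Sp5 clones (from 8 counts).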
